A study of Mus musculus with 12 samples.

Results

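Primary podocyte cultures that had received no tamoxifen were compared with glomeruli of control mice, which are the source tissue of such cultures. The samples were taken by their labels, as the 4 mock-treated podocyte culture samples and the 2 control glomerular samples, and make up 6 of the 12 arrays of the series. The cultures were grown from glomeruli of adult mice and taken as mock cultures on day 4 (2 samples) and day 7 (2 samples), without a description of what the mock treatment held. The labels' protocols give these days as days of treatment before RNA isolation, and the series' design text counts them from the treatment. The glomeruli came from 2 control mice that received no agent. All samples carry a genotype written as Inducible-Cre; Foxc1flox/flox; Foxc2flox/flox, so the unrecombined floxed alleles and the Cre are shared by cultures and glomeruli. The number written after the second Foxc in that label changes with every sample, and Foxc2 was taken from the series title. The promoter that drives the Cre is not named. The remaining 6 arrays hold tamoxifen cultures of the same days and glomeruli of tamoxifen mice, which had 3 daily injections from the age of 8 weeks and were used on day 7. They serve below only as a second set of cultures and glomeruli.

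A glomerulus is a tuft of fenestrated capillaries held by mesangial cells, wrapped on the outside by podocytes and enclosed by a capsule of parietal epithelial cells. Podocytes are postmitotic epithelial cells whose interlocking foot processes are bridged by the slit diaphragm, a sheet of nephrin complexes anchored to actin, and with the endothelium they build the basement membrane between them. Primary podocytes grow out of glomeruli placed on a dish, where they are known to spread, to lose foot processes and to resume dividing. Isolated glomeruli hold all the glomerular cell types and fragments of neighbouring tubule, whereas a culture holds the cells that attach and grow.

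Each RNA was hybridised to 1 Agilent one-colour array, and the values below are log2 signals relative to the array's own 75th percentile, set to 0. On these 6 arrays 58.5% to 63.4% of spots were well above background and none was saturated. Replicate arrays correlated at 0.983 to 0.987 across genes, day 4 with day 7 cultures at 0.984 to 0.993, and cultures with glomeruli at 0.801 to 0.814. The first principal component held 89.9% of the variance and separated cultures from glomeruli. All glomerular arrays sat on 1 slide, day 4 cultures on the second and day 7 cultures on the third, so that slide and sample kind cannot be told apart. The culture labels do not say that the numbered samples were separate cultures. The p-values then measure only the spread between these samples, which may be technical. With 4 arrays against 2, an exact two-sided permutation test cannot give a p under 0.0667, and the adjusted p-values given below come from limma, fitted over every gene at the same time.

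Of 14795 named genes, 8524 (57.6%) differed between mock cultures and control glomeruli at an adjusted p under 0.05. Expression was higher in cultures for 5021 genes (33.9%) and lower for 3503 (23.7%). Large differences ran mostly downward, with 1003 genes (6.78%) at least 4-fold higher in cultures and 1549 (10.5%) at least 4-fold lower. All 4 cultures lay above both glomerular arrays for 6289 genes (42.5%) and below both for 4356 (29.4%). The median difference over all genes was 0.18 on the log2 scale, and it was 0.39 when arrays were centred on their medians. With more than every second gene called, a list's count is read here against these shares. Among the gene lists described below, the lowest median differences were those of red blood cell, proximal tubule and endothelial genes. The highest were those of cell cycle, interstitial collagen and fibroblast genes. With normexp background correction and quantile normalization together, endothelial genes were lowest (-4.74). Interstitial collagen (1.62), smooth muscle and stress fibre (1.61) and cell cycle inhibitor and p53 target genes (1.43) were then highest, with cell cycle genes at 1.12. Quantile normalization alone put fibroblast genes (2.04) above interstitial collagen genes (2.01). The 3 leading called members of each gene list in each direction were named by rule, and members named beyond those were chosen after their values were seen. Some differences given below without a bound rest partly on readings at background. Only 1 of the 2 glomerular arrays was well above background for Smoc2, Ltbp2, Ccl2, C1qa, C1qc and Top2a, only 2 of the 4 cultures for Egf, Cd74, Itgb7, Prom1 and Thbs2, and only 3 for Miox, Sfrp2, Rsad2, Kank4, Nck1 and Vwf. In whole tissue, fewer cells of a type and less RNA per cell cannot be told apart.

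**Figure D1:**
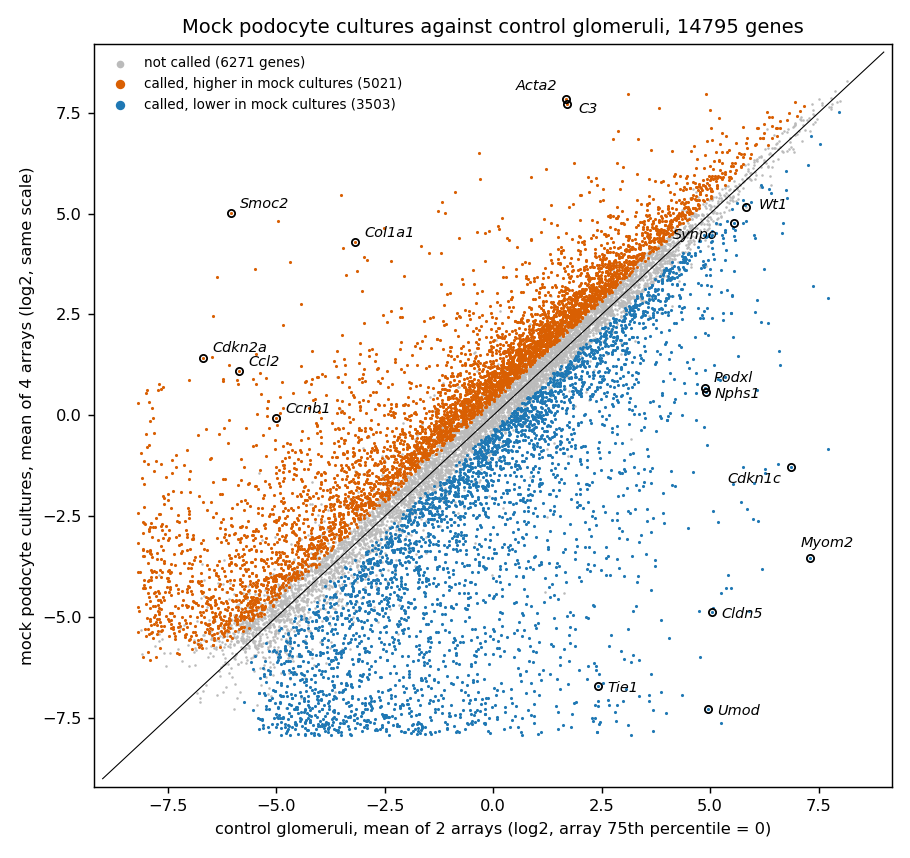
Mean log2 value of 4 mock podocyte cultures (vertical) against the mean of 2 control glomeruli (horizontal) for 14795 genes, with the array's 75th percentile at 0; orange points were called higher in cultures (5021), blue points lower (3503) and grey points not called (6271). Smoc2, Col1a1 and Cdkn2a lie far above the diagonal, Umod, Cldn5 and Myom2 far below it, and Wt1 and Synpo close to it.

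**Figure D2:**
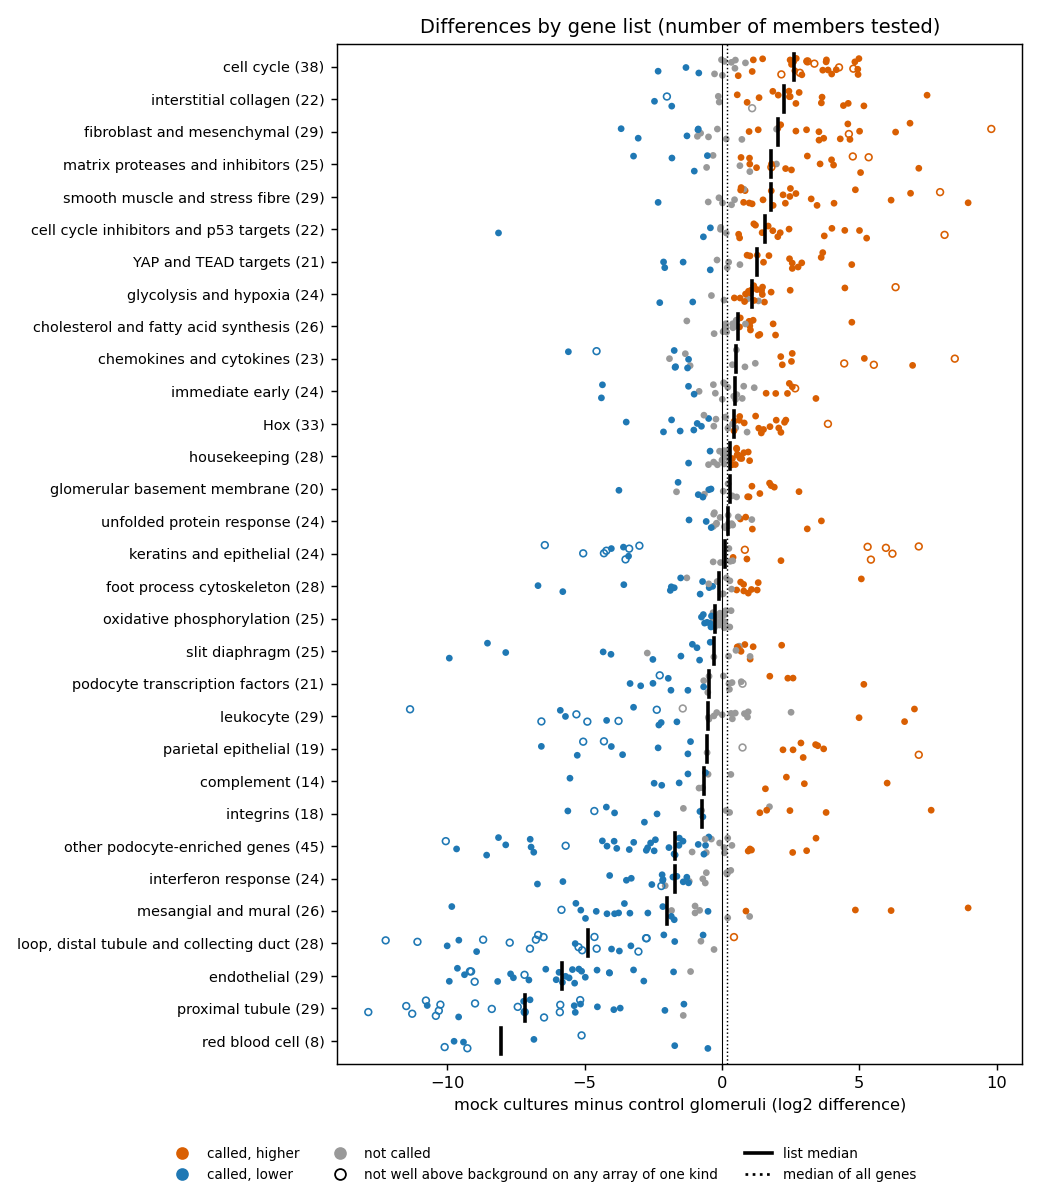
Log2 difference, mock cultures minus control glomeruli, for every tested member of 31 gene lists; thick lines are list medians, the dotted line is the median of all genes, and open circles are genes dim (not well above background) on all arrays of 1 sample kind. Medians run from 2.63 for cell cycle genes to -8.06 for red blood cell genes.

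Slit diaphragm genes were split, with several signature genes of the podocyte far lower in cultures and several broadly expressed members higher. The junction gene Tjp1 was instead lower (log2 difference -0.43, adjusted p = 0.026). The junction genes F11r (adjusted p = 0.12) and Cxadr (0.058) were not called. Of 25 members, 11 were lower and 8 higher, against 23.7% and 33.9% of all genes, so that the higher count was near the share of all genes. The median difference was -0.30, or -0.05 to -0.09 with normexp and quantile normalization, median centring or quantile normalization alone. Nephrin (Nphs1), the adhesion protein that spans the slit, read 0.73 and 0.49 in day 4 cultures and 0.89 and 0.17 in day 7 cultures, against 4.62 and 5.17 in control glomeruli (log2 difference -4.33, SE 0.28, adjusted p = 0.00032). It lay lower in every culture than in either glomerular sample and stayed well above background in all 4 cultures. Ptpro, a receptor tyrosine phosphatase of the podocyte surface, read -2.17, -1.54, -2.49 and -2.43 in cultures, against 5.46 and 5.97 in glomeruli (log2 difference -7.87, SE 0.24). Cldn5, a tight junction claudin made by podocytes and by endothelium, had the largest fall of the list at -9.93 and is also counted among the endothelial genes. Trpc6, a calcium channel of the foot process, was lower by a log2 difference of -4.04 (SE 0.59), with only 2 of the 4 cultures well above background.

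The adaptor Cd2ap, which ties nephrin to actin, changed much less. It read 2.89, 2.87, 2.92 and 2.91 in cultures, against 4.00 and 3.95 in glomeruli, a 2.11-fold lower level. Kirrel, a nephrin-binding immunoglobulin protein, was instead 4.51-fold higher, at 4.71, 4.38, 4.45 and 4.33 in cultures against 2.30 and 2.30 in glomeruli. The giant cadherin Fat1 (log2 difference 1.02, SE 0.13) and the scaffold Magi1 (1.13, SE 0.25) followed among the higher members, though the call of Magi1 was lost without control replicate 2 (adjusted p = 0.069). Crb2, a polarity protein of the slit, was lower by a log2 difference of -2.52 (SE 0.55), and its call was lost without control replicate 1 (adjusted p = 0.051) and without control replicate 2 (0.086). Nck1, an adaptor that binds phosphorylated nephrin, read -7.24 on 1 day 4 array and 0.99 to 1.14 on the other 3 cultures, against 1.62 and 1.83 in glomeruli. Its difference was not called (adjusted p = 0.35). Without that array the log2 difference of Nck1 was -0.62. Without the other day 4 array it was -4.81, a size that rests on the low reading as the only day 4 value.

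**Figure D3:**
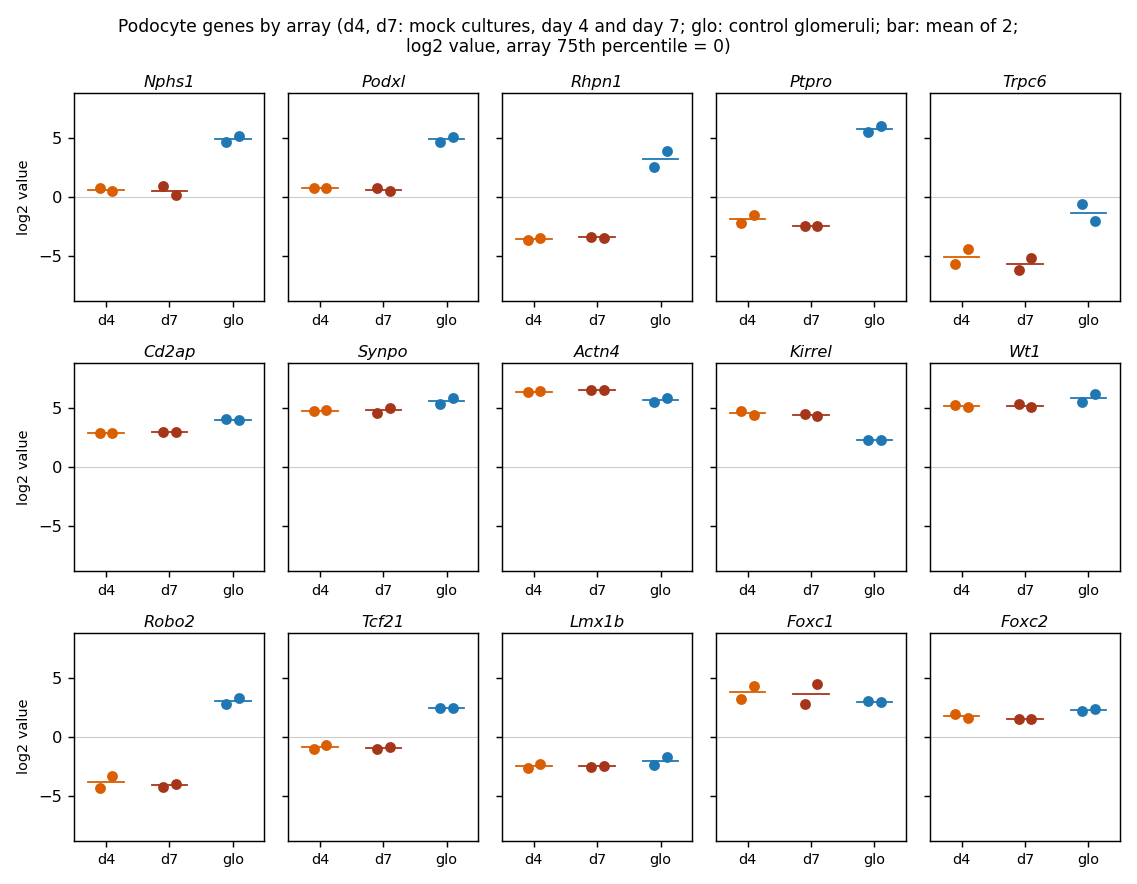
Log2 value on each array (vertical) for 15 podocyte genes in day 4 (d4) and day 7 (d7) mock cultures and in control glomeruli (glo), 2 arrays a group with a bar at their mean. Nphs1, Podxl, Ptpro, Rhpn1, Robo2 and Tcf21 are lower in all 4 cultures, Kirrel and Actn4 are higher, and Foxc1 overlaps between the sample kinds.

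The transcription factors that specify podocytes did not move as a block. Of 21 members 8 were lower and 4 higher, against 23.7% and 33.9% of all genes. The median difference was -0.47, which was -0.17 to -0.27 with those 3 settings. Wt1, the zinc finger factor that defines podocytes, stayed among the bright genes, at 5.26, 5.04, 5.27 and 5.04 in cultures against 5.50 and 6.14 in glomeruli. All cultures lay below both glomerular samples, with a log2 difference of -0.67 (SE 0.22) that did not pass (adjusted p = 0.0502). It passed under several other settings, among them scanner values (0.047), quantile normalization (0.0063), normexp (0.0042) and the fit without control replicate 1 (0.021). Lmx1b, a LIM homeodomain factor, overlapped between the sample kinds (log2 difference -0.47, SE 0.22, adjusted p = 0.13, and 0.042 without control replicate 1). Tcf21, a basic helix-loop-helix factor of podocytes and mesenchyme, was 10.2-fold lower, at -1.08, -0.69, -1.02 and -0.85 in cultures against 2.43 and 2.44 in glomeruli. Hey1, a Notch target, was 5.71-fold lower. Factors known from the early kidney differed in direction. Lhx1 was lower (adjusted p = 0.0028), with no culture well above background, and Pax2 was not called (adjusted p = 0.14), but 3 of the 4 rises were in such factors. Osr1, a marker of kidney progenitors, read 0.74, 1.00, 0.49 and 1.21 in cultures, against -3.33 and -5.28 in glomeruli (log2 difference 5.16, SE 0.58). Pax8, a nephron progenitor and parietal cell factor, was 6.01-fold higher and Foxd1, a stromal progenitor factor, 5.26-fold higher.

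Foxc1 and Foxc2, forkhead factors and the genes floxed in these mice, were both present in mock cultures. Foxc2 read 1.88, 1.56, 1.48 and 1.53 in cultures, against 2.20 and 2.36 in glomeruli. It was 1.59-fold lower (log2 difference -0.67, SE 0.14, adjusted p = 0.013), a call that was lost without control replicate 2 (adjusted p = 0.062), with median centring (0.069) and with all 12 arrays in the fit (0.21). Foxc1 read 3.21 and 4.32 on day 4 and 2.73 and 4.43 on day 7, against 3.02 and 2.92 in glomeruli, so that the sample kinds overlapped (log2 difference 0.70, SE 0.57, adjusted p = 0.33). Replicate 1 was the lower culture for Foxc1 on both days.

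Genes of the foot process cytoskeleton were also split, with 11 of 28 members lower and 9 higher, against 23.7% and 33.9% of all genes. The higher count was again near the share of all genes. Their median difference was -0.10, and it was 0.11 with median centring, -0.18 with normexp and quantile normalization and -0.20 with quantile normalization alone. The count of lower members was 5 to 7 without control replicate 2, either day 4 culture or day 7 replicate 1, and 7 with median centring. Rhpn1, a podocyte-enriched protein, was 104-fold lower, at -3.66, -3.45, -3.41 and -3.45 in cultures against 2.51 and 3.90 in glomeruli. Slc9a3r2, which links podocalyxin to ezrin, was 11.9-fold lower and Myo1e, a class I myosin of the podocyte, 3.34-fold lower. Synaptopodin (Synpo), the actin-binding protein of foot processes, differed little, at 4.67, 4.80, 4.58 and 4.99 in cultures against 5.32 and 5.80 in glomeruli. Its log2 difference was -0.80 (SE 0.20, adjusted p = 0.023), but another of its probes pointed the other way, and the mean of the probes gave 0.83 (adjusted p = 0.033). The call was lost with median centring (0.088) and without control replicate 2 (0.1), either day 4 culture (0.066 and 0.055) or day 7 replicate 1 (0.053). Kank4, an adhesion adaptor, read -2.75 and -2.42 in replicate 1 of the days and -5.45 and -7.91 in replicate 2, against 1.40 and 0.92 in glomeruli (SE 1.68), and its call was lost without control replicate 1 (0.15), control replicate 2 (0.12) or day 4 replicate 2 (0.074). Higher members were the crosslinker Actn4 (1.73-fold), the intermediate filament Vim (2.49-fold) and cortactin (Cttn, 2.43-fold). Anln, an actin-binding protein that also builds the cleavage furrow of dividing cells, was 33.6-fold higher.

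Among 45 other podocyte-enriched genes, 30 were lower and 6 higher, against 23.7% and 33.9% of all genes, with a median of -1.71. Podocalyxin (Podxl), the sialomucin that keeps foot processes apart, read 0.73, 0.77, 0.73 and 0.52 in cultures, against 4.68 and 5.06 in glomeruli, an 18.2-fold lower level (SE 0.16 on the log2 scale). Clic3, a chloride channel family protein, was 810-fold lower and Mapt, the microtubule protein tau, 379-fold lower. Tdrd5, a tudor domain protein, was not well above background in any culture and was at least 264-fold lower. Such a bound sets the brighter mean against, on each dim array, the higher of the gene's own value and the dimmest signal well above background. Robo2, a slit receptor of the podocyte, read between -4.33 and -3.34 in cultures, against 2.73 and 3.29 in glomeruli. Thsd7a and Pla2r1, the surface antigens of membranous nephropathy, were 14.2-fold and 6.05-fold lower. Angpt1, an angiopoietin that podocytes supply to the capillary, was 10.7-fold higher, and the heparan sulfate endosulfatases Sulf1 and Sulf2 were 8.46-fold and 5.95-fold higher.

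Of 20 basement membrane genes 8 were higher and 6 lower (3 with median centring), shares near those of all genes (33.9% and 23.7%). Their median was 0.30, and it ran from 0.05 to 0.51 over the other scalings. The α1 and α2 chains of collagen IV, which occur in most basement membranes, were higher: Col4a1 read 5.67, 5.33, 5.38 and 4.97 in cultures, against 2.40 and 2.67 in glomeruli. Its log2 difference was 2.80 (SE 0.19) and that of Col4a2 was 1.73 (SE 0.19). The chains of the mature glomerular membrane went separate ways, with Col4a3 1.82-fold lower, Col4a4 overlapping (log2 difference 0.05, SE 0.16, adjusted p = 0.82) and Col4a5 1.91-fold higher. The call of Col4a5 was lost without any 1 of the 4 cultures (adjusted p = 0.051 to 0.06). Lama5, the laminin α5 chain, was 3.74-fold higher, at 5.82, 5.76, 5.78 and 5.76 in cultures against 3.90 and 3.86 in glomeruli. Col18a1, the precursor of endostatin, was 13.5-fold lower and Nid2 3.03-fold lower.

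Endothelial genes were lower almost without exception. Of 29 members 28 were lower and 0 higher, with a median of -5.81, and the summed level of the list was 20.8 to 31.4 in cultures, against 714 to 872 in glomeruli, in units of the array's 75th percentile signal. Ptprb, the endothelial receptor phosphatase, read -3.54, -4.08, -3.51 and -4.72 in cultures, against 5.58 and 5.25 in glomeruli (log2 difference -9.37, SE 0.39). Ramp2, a co-receptor of adrenomedullin in endothelium, was 793-fold lower. The angiopoietin receptor Tek, its partner Tie1 and the factors Sox18 and Erg were not well above background in any culture. They were at least 176-fold, 249-fold, 275-fold and 47.3-fold lower. Pecam1 was 37.0-fold lower, at -3.65, -3.83, -3.65 and -3.91 in cultures against 1.56 and 1.33 in glomeruli. Kdr, the main VEGF receptor, changed least among the called endothelial genes named here, at 1.16, 1.03, 1.70 and 1.22 in cultures against 3.21 and 2.87 in glomeruli. Vwf overlapped (log2 difference -1.14, SE 0.42, adjusted p = 0.07), and it was called with all 12 arrays in the fit (0.022) and with the slide as a random block (0.023). Vegfa, the growth factor with which podocytes sustain this endothelium, was 2.68-fold lower (adjusted p = 0.017), and its call was lost without control replicate 1 (0.0515), control replicate 2 (0.096) or day 7 replicate 2 (0.0503).

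Mesangial and mural genes differed in direction. Of 26 members 16 were lower and 4 higher, against 23.7% and 33.9% of all genes, with a median of -2.0. Itga8, the integrin that marks mesangial cells, read 0.87, 1.20, 0.03 and 1.01 in cultures, against 5.24 and 4.14 in glomeruli (15.0-fold lower). Sfrp2, a secreted Wnt modulator, was 914-fold lower, the growth factor Ptn 39.9-fold lower and Gata3, a mesangial transcription factor, 11.7-fold lower. Akr1b7, a reductase of renin cells, was not well above background in any culture and was at least 49.7-fold lower. Pdgfrb, the platelet-derived growth factor receptor of mesangial cells, overlapped, at 3.17, 3.83, 3.09 and 3.48 in cultures against 3.65 and 2.71 in glomeruli (adjusted p = 0.63). The 4 higher members were contractile genes, but not every such member rose. Myh11 was not called (log2 difference -0.82, adjusted p = 0.10), and the muscle filament gene Des was lower (-1.85, adjusted p = 0.021). Acta2, smooth muscle actin, read 7.94, 7.75, 7.95 and 7.69 in cultures, against 1.69 and 1.66 in glomeruli, a 71.3-fold difference (SE 0.13 on the log2 scale), while Cnn1 was 498-fold and Tagln 28.9-fold higher. The summed level of the list, to which Tagln and Acta2 contribute most in cultures and Sfrp2 and Tbx3 in glomeruli, was 584 to 683 in cultures and 178 to 319 in glomeruli.

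Tubule and red blood cell genes were far lower in cultures. In the proximal tubule list 28 of 29 were lower and 0 higher, with a median of -7.18 and 15 genes not well above background in any culture. The loop, distal tubule and collecting duct list had 25 of 28 lower and 1 higher, with a median of -4.87. With normexp and quantile normalization together these medians were -4.02 and -2.06. Umod, the urinary protein uromodulin of the loop, read -7.22, -7.30, -7.20 and -7.41 in cultures, against 5.14 and 4.78 in glomeruli, and was at least 1501-fold lower. Fbp1, a gluconeogenic enzyme, was at least 986-fold lower. No culture was well above background for either gene. The filter keeps such a gene only when both glomerular arrays are well above background, so that their brightness there is no separate observation. Miox, the inositol oxygenase of proximal tubule, had a log2 difference of -10.73 (SE 0.27), Fxyd2, a subunit of the sodium pump, -10.00 (SE 0.34) and Egf, made in the distal tubule, -9.58 (SE 0.17). The 1 higher gene, the proton pump subunit Atp6v1g3, was at least 1.32-fold higher, with 2 of the 4 cultures and neither glomerular array well above background, and its call was lost without any 1 array (adjusted p = 0.057 to 0.11). Of 8 red blood cell genes all were lower, with a median of -8.06, or -3.88 with normexp and quantile normalization. The globin gene Hba-a2 read -4.71, -4.07, -3.99 and -4.36 in cultures, against 6.02 and 4.92 in glomeruli, and Hbb-bt was at least 262-fold lower.

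Parietal epithelial genes, which mark the capsule, had 8 of 19 members higher and 9 lower, against 33.9% and 23.7% of all genes. All 8 of the rises and 7 of the falls were at least 4-fold. Cp, ceruloplasmin, was 13.0-fold higher and Dkk3, a secreted glycoprotein, 11.2-fold higher. Cldn1, the claudin of parietal cells, read -0.87, -0.72, -1.46 and -0.99 in cultures, against -4.36 and -3.57 in glomeruli, and Cd44, a hyaluronan receptor of activated parietal cells, was 4.66-fold higher. Against these, Prom1 (CD133) was 95.4-fold lower and the adhesion molecule Vcam1 38.5-fold lower. Keratins and other epithelial genes went both ways. Cdh1, E-cadherin, was at least 24.2-fold lower, Krt8 at least 11-fold, Krt18 at least 16.6-fold and Epcam at least 5.23-fold, and none of the 4 was well above background in any culture. Other keratins and a desmosomal gene rose instead. Krt19 read -0.13, -1.49, -0.52 and -1.63 in cultures and was not well above background in either glomerular sample, at least 30.1-fold higher, and Krt20 and the desmosomal Pkp1 were at least 21.4-fold and 32.2-fold higher. Over the list of keratins and epithelial genes 9 of 24 were higher and 10 lower, against 33.9% and 23.7% of all genes.

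Most leukocyte genes were lower or not called, while a few macrophage genes, the C1q chains and Marco, rose. Of 29 members 13 were lower, 3 higher and 13 not called, against 23.7% lower and 33.9% higher among all genes. S100a9, a neutrophil protein, was at least 761-fold lower, the B cell receptor subunit Cd79b at least 22.9-fold lower and Cd74, the invariant chain of antigen presentation, 51.9-fold lower. The pan-leukocyte phosphatase Ptprc read -4.66, -4.48, -4.78 and -5.03 in cultures, against -2.91 and -3.28 in glomeruli (3.12-fold lower). The 3 higher genes (5 with the replicate block) were the chains of C1q, the first complement component, which macrophages make. C1qa read 1.75, 0.16, 1.40 and -0.21 in cultures, against -4.88 and -6.86 in glomeruli (log2 difference 6.65, SE 0.83), C1qb differed by 4.99 and C1qc by 7.01. Marco, a macrophage scavenger receptor, was among the largest rises of all genes, at 3.91, 1.76, 3.12 and 2.27 in cultures against -4.57 and -4.28 in glomeruli (146-fold). Adgre1, the macrophage antigen F4/80, lay higher in every culture, at -0.37, -2.60, -0.78 and -2.86 against -4.34 and -4.00 in glomeruli, without passing the threshold (adjusted p = 0.052). It passed with the replicate block (0.03), with median centring (0.024) and without replicate 2 of either day (0.025 and 0.036), among other settings. Csf1r, Tyrobp and Lyz2 overlapped (adjusted p = 0.5, 0.53 and 0.18). In all of these macrophage genes replicate 1 read higher than replicate 2 on both days, and the summed level of the list was 40.4 and 36.5 in replicate 1 and 21.0 and 18.5 in replicate 2, against 47.5 to 53.3 in glomeruli. Not every macrophage gene rose. Mrc1 was lower in cultures (log2 difference -4.20, SE 1.03, adjusted p = 0.021), and Itgam, Cd14, Cx3cr1, Fcer1g and Laptm5 were not called.

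**Figure D4:**
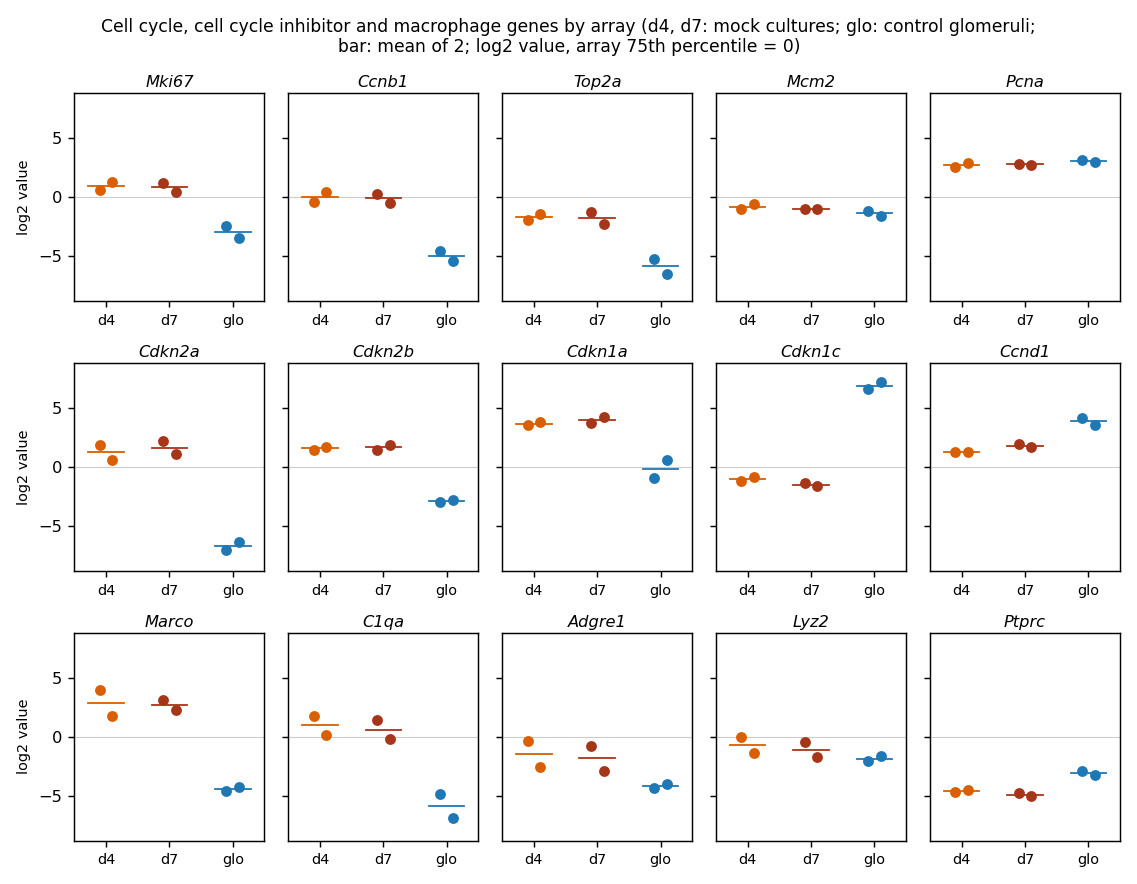
Log2 value on each array (vertical) for cell cycle, cell cycle inhibitor and macrophage genes in day 4 (d4) and day 7 (d7) mock cultures and control glomeruli (glo), 2 arrays a group with a bar at their mean. Cultures are higher for Mki67, Ccnb1, Top2a, Cdkn2a, Cdkn2b, Cdkn1a, Marco and C1qa, and glomeruli are higher for Cdkn1c, Ccnd1 and Ptprc; Marco, C1qa, Adgre1 and Lyz2 are higher in the left of the 2 points on each day, which is replicate 1.

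Complement genes outside C1q also changed. C3, the central component, read 7.73, 7.79, 7.80 and 7.54 in cultures, against 1.30 and 2.11 in glomeruli, and was 64.6-fold higher (SE 0.25 on the log2 scale). Factor B (Cfb), the protease of the alternative pathway, was 46.3-fold lower, at -3.88, -4.23, -2.18 and -5.23 in cultures against 1.83 and 1.47 in glomeruli. The membrane regulators Cd55 and Cd59a were 5.54-fold and 4.57-fold lower. Over the list 4 of 14 members were higher and 6 lower, against 33.9% and 23.7% of all genes, and the higher count was 2 without either glomerular array.

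Cell division genes rose together. Of 38 cell cycle members 27 were higher and 3 lower, with a median of 2.63, and 23 were at least 4-fold higher, against 6.78% of all genes. Cyclin B1 (Ccnb1), which drives entry into mitosis, read -0.42, 0.38, 0.28 and -0.50 in cultures, against -4.58 and -5.43 in glomeruli (30.8-fold, SE 0.40 on the log2 scale). The proliferation antigen Mki67 read 0.56, 1.26, 1.15 and 0.45 in cultures, against -2.42 and -3.48 in glomeruli (13.9-fold). All cultures lay above both glomerular samples in these genes. Kif20a, a kinesin of cytokinesis, was 31.7-fold higher, Rrm2, a subunit of ribonucleotide reductase, 31.0-fold, Ccnb2 15.9-fold and the topoisomerase Top2a 17.9-fold. Not all members rose. Mcm2, a subunit of the replicative helicase, was not called (adjusted p = 0.096), though it was called higher with median centring (0.029), all 12 arrays in the fit (0.042) and the slide as a random block (0.013). Pcna, the sliding clamp of DNA polymerase, was not called either (0.16), though it was called lower with normexp and quantile normalization (0.0049) and with the slide block (0.02). Mcm3, another helicase subunit, was 2.48-fold lower. Ccnd1, the G1 cyclin D1, was 5.01-fold lower, at 1.25, 1.25, 1.94 and 1.65 in cultures against 4.16 and 3.53 in glomeruli. With normexp background correction and quantile normalization together, the median of the list was 1.12.

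Mitotic genes are known to share 2 promoter elements, the CCAAT box, bound by NF-Y, and the CHR element, bound by the DREAM and MuvB complexes. RefSeq promoters (GRCm38.p6, the 250 bases before the start, the first listed per gene) were found for 31 members of the cell cycle list, and motifs were searched on both strands. The letters CCAAT or ATTGG, its reverse complement, stood in 24 of them (77.4%), against 9314 of 27025 promoters (34.5%). TTTGAA or its reverse TTCAAA, used here for the CHR, stood in 9 (29.0%), against 16.3% of all promoters, and both motifs together in 9 (29.0%), against 5.73%. The list was searched whether or not a member was called or rose. These shares therefore describe the list and not these arrays. The same window is shown for 3 mitotic genes described above, with the motifs in capitals. The Ccnb1 stretch is chr13:100786487-100786736, that of Ccnb2 chr9:70421555-70421804 and that of Top2a chr11:99024190-99024439, all on the minus strand and written in the direction of transcription.
Ccnb1: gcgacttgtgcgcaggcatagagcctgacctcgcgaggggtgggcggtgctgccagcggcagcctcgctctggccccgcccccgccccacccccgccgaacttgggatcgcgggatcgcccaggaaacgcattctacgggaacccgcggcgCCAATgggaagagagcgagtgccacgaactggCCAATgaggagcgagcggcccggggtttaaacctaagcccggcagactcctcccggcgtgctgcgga
Ccnb2: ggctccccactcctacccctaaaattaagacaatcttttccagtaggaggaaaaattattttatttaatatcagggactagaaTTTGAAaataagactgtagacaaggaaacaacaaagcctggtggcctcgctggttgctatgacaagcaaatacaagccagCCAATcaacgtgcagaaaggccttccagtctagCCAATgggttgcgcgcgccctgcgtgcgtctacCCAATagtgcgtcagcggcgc
Top2a: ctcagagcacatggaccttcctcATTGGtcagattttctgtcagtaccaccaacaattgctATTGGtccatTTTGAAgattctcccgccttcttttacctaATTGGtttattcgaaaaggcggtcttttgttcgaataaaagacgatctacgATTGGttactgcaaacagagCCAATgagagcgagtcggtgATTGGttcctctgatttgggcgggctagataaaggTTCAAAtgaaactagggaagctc
Every one of the 3 holds the CCAAT letters, and Ccnb2 and Top2a also hold the CHR letters used here. Variant forms of the CHR were not searched, so that Ccnb1 cannot be said to lack the element. These matches are descriptions of sequence and no measure of binding.

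Inhibitors of the cell cycle changed in opposite directions. Of 22 inhibitors and p53 targets 16 were higher and 3 lower, against 33.9% and 23.7% of all genes, with a median of 1.57. Cdkn1c (p57), the cyclin-dependent kinase inhibitor of the mature podocyte, read -1.18, -0.90, -1.36 and -1.66 in cultures, against 6.57 and 7.15 in glomeruli. It was 281-fold lower (log2 difference -8.14, SE 0.22, adjusted p = 3.3e-05). Cdkn2a, the locus of p16 and p19ARF, read 1.88, 0.60, 2.15 and 1.07 in cultures and was not well above background in either glomerular sample, at least 155-fold higher. Its neighbour Cdkn2b (p15) was 22.2-fold higher and Cdkn1a (p21), a target of p53, 16.0-fold higher. Several other p53 targets rose with them, among them Gdf15 (38.5-fold), the apoptosis gene Pmaip1 (32.1-fold) and Mdm2 (3.21-fold), the ubiquitin ligase that limits p53. The targets Ei24 (log2 difference -0.68, adjusted p = 0.006) and Fas (-0.42, adjusted p = 0.026) were lower. The call of Fas was lost with median centring (adjusted p = 0.27). Perp and Trp53inp1 were not called.

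Contractile and stress fibre genes rose nearly as a block, with 22 of 29 higher and 1 lower, against 33.9% and 23.7% of all genes. Their median was 1.79. Beside Cnn1 and Acta2, Actg2, the enteric smooth muscle actin, read 1.59, 1.34, 1.64 and 1.27 in cultures and was at least 159-fold higher, since neither glomerular sample was well above background. Flnc, a filamin of muscle, was 116-fold higher and Actn1, the non-muscle α-actinin, 16.9-fold higher, at 3.08, 3.04, 2.97 and 2.94 in cultures against -1.14 and -1.01 in glomeruli. Zyx, a focal adhesion protein that responds to tension, was 6.46-fold higher. The only lower member was Mylk, myosin light chain kinase (5.01-fold), and there were 2 lower members with scanner values, with probes averaged per gene and in several other fits.

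YAP and TAZ carry cell spreading and tension into the nucleus through TEAD factors. Of 21 of their target genes 13 were higher and 4 lower, against 33.9% and 23.7% of all genes, with a median of 1.28. Ccn1, a secreted matricellular protein, read 4.88, 4.30, 4.53 and 4.38 in cultures, against -0.31 and -0.09 in glomeruli (26.4-fold, SE 0.20 on the log2 scale). Ankrd1, a nuclear ankyrin protein, read 2.62, 2.06, 2.62 and 2.22, against -1.08 and 0.03 (7.48-fold). Ccn2 was already bright in glomeruli, at 6.42 and 6.30, and 2.03-fold higher in cultures. Nt5e, an ectonucleotidase and mesenchymal marker, and Dlc1, a GTPase activating protein, were 4.37-fold and 4.24-fold lower, with calls that were lost without either glomerular array (adjusted p = 0.064 to 0.15), and for Nt5e also without replicate 2 of either day (0.0515 and 0.055). The count of lower members was 1 without either glomerular array and 2 without replicate 2 of either day. The TEAD motif letters GGAATG or CATTCC stood in 7 of 18 promoters of the list (38.9%), against 3414 of 27025 (12.6%). The list was made of TEAD targets and was searched whether or not a member was called. This share therefore describes the list and not these arrays, and it is no measure of binding. Ccn1 (chr3:145649986-145650235) and Ankrd1 (chr19:36119845-36120094) are shown, both on the minus strand, with only the TEAD letters in capitals, as members described above that hold them.
Ccn1: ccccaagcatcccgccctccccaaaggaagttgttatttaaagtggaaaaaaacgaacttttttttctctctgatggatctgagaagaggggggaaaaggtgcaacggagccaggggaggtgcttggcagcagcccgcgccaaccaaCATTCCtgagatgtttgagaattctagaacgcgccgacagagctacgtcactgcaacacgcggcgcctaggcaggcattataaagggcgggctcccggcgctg
Ankrd1: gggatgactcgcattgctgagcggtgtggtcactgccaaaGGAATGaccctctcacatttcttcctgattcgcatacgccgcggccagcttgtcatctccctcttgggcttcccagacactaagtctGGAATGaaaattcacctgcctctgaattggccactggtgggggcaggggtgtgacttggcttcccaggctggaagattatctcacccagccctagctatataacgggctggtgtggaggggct

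Genes of interstitial matrix rose strongly. Their counts stand against 33.9% higher and 23.7% lower among all genes. Of 22 interstitial collagen genes 16 were higher and 3 lower (median 2.24), of 29 fibroblast and mesenchymal genes 17 were higher and 5 lower (2.03, or 1.34 with normexp and quantile normalization, with 3 lower without control replicate 1), and of 25 matrix proteases and inhibitors 16 were higher and 4 lower (1.80, or 0.95 with normexp and quantile normalization). Col1a1, the α1 chain of collagen I, read 4.99, 3.77, 5.44 and 2.95 in cultures, against -3.07 and -3.28 in glomeruli (177-fold, SE 0.77 on the log2 scale), with replicate 1 the higher on both days. Its partner chain Col1a2 was bright in both and 4.13-fold higher. Col14a1 was 35.9-fold and Col3a1 21.4-fold higher. Fibronectin (Fn1) read 6.53, 6.50, 6.57 and 6.42 in cultures, against 0.07 and -0.74 in glomeruli (115-fold). Lox, which crosslinks collagen and elastin, was not well above background in glomeruli and was at least 624-fold higher, at 3.57, 3.55, 3.18 and 3.42. Timp1, an inhibitor of metalloproteinases, was 143-fold higher and the gelatinase Mmp2 15.9-fold. Against this, the collagen VI chain Col6a1 was 5.49-fold lower, Thbs2 12.7-fold lower, the mesenchymal factor Twist1 8.28-fold lower and tissue plasminogen activator (Plat) 9.32-fold lower.

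Among 18 integrin genes 5 were higher and 8 lower, against 33.9% and 23.7% of all genes. Itga11, a collagen receptor subunit, read 3.99, 4.68, 3.78 and 4.15 in cultures, against -3.81 and -3.12 in glomeruli (196-fold, SE 0.30 on the log2 scale). The fibronectin receptor subunit Itga5 was 13.8-fold higher and the collagen receptor subunit Itga1 5.55-fold higher. Itga3, whose protein pairs with Itgb1 to anchor podocytes to laminin, was 1.62-fold lower, and the call was lost with median centring (adjusted p = 0.059), while Itgb1 was 2.60-fold higher. The leukocyte integrins Itgb7 and Itga4 were 48.9-fold and 18.5-fold lower.

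Glycolysis genes rose, while respiratory chain genes differed little. The counts of these lists and of lipid synthesis stand against 33.9% higher and 23.7% lower among all genes. Of 24 glycolysis and hypoxia genes 18 were higher and 2 lower (median 1.11), a count of 9 higher without control replicate 1. Hk2, the inducible hexokinase, read -0.15, -0.76, -0.25 and -0.76 in cultures and was at least 41.5-fold higher, since no glomerular array was well above background. Slc16a3, the lactate exporter MCT4, was 22.2-fold higher and the glucose transporter Slc2a1 2.77-fold higher. Ndrg1, a gene induced by hypoxia, was 4.81-fold lower. Of 25 oxidative phosphorylation genes 7 were lower, near the share of all genes (23.7%), and 0 higher, against 33.9% of all genes. Their median was -0.25 (-0.51 to -0.04 over the other scalings), and the largest log2 difference was -0.75 in Atp5a1, a subunit of ATP synthase. The count of lower genes was 1 with median centring, 15 with quantile normalization and 2 to 4 without 1 array. Of 26 genes of cholesterol and fatty acid synthesis 12 were higher and 0 lower (median 0.59), 7 and 1 without control replicate 1. Fads2, a fatty acid desaturase, led them at 26.5-fold, and fatty acid synthase (Fasn) was 3.86-fold and squalene epoxidase (Sqle) 3.63-fold higher.

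Of 23 chemokine and cytokine genes 9 were higher and 7 lower (median 0.52), shares near those of all genes (33.9% and 23.7%). The monocyte chemokine Ccl2 read 0.69, 1.67, 0.94 and 1.07 in cultures, against -5.01 and -6.69 in glomeruli (123-fold), and its neighbour Ccl7 was at least 99.2-fold higher. Tgfb3 was 36.3-fold higher, at 4.59, 4.16, 4.73 and 4.13 in cultures against -0.53 and -1.03 in glomeruli. The lymphocyte chemokine Ccl5 was 48.2-fold lower and the inflammatory cytokine Il1b at least 5.75-fold lower, not well above background in any culture. Interferon response genes were lower, with 15 of 24 called lower and 0 higher, against 23.7% and 33.9% of all genes. Their median was -1.71. Rsad2 (viperin) read -4.84, -5.16, -5.06 and -5.99 in cultures, against 0.96 and 1.95 in glomeruli (105-fold), and Psmb9, a subunit of the immunoproteasome, was 17.0-fold lower. The summed levels of leukocyte genes (18.5 to 40.4 in cultures, 47.5 to 53.3 in glomeruli) and of endothelial genes were lower in the same cultures, and their part in these differences was not tested.

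Immediate early genes, which tissue handling is known to induce, had 7 of 24 members higher and 4 lower, both under the shares of all genes (33.9% and 23.7%). Myc was 10.7-fold and Gadd45b 5.89-fold higher, while Nr4a1 was 21.0-fold lower, at -1.84, -1.13, -2.03 and -0.72 in cultures against 2.70 and 3.23 in glomeruli. Klf2, a flow-responsive factor of endothelium, was 20.4-fold lower. Of 24 unfolded protein response genes 5 were higher and 3 lower, also under those shares (median 0.23, and -0.05 to 0.44 over the other scalings). Asns, asparagine synthetase, and Trib3, a pseudokinase, both targets of ATF4, were 12.3-fold and 8.60-fold higher. Among 33 Hox genes 16 were higher and 8 lower, against 33.9% and 23.7% of all genes. The lower count was near the share of all genes. The Hox median was 0.44, or 0.29 with normexp and quantile normalization. Hoxc13 was not well above background in glomeruli and at least 3.38-fold higher, Hoxd10 was 5.01-fold higher and Hoxb5 11.2-fold lower. Of 28 housekeeping genes 14 were higher and 2 lower, none by as much as 4-fold, with a median of 0.30 (0.04 to 0.51 over the other scalings), and 7 were higher with quantile normalization and 5 to 9 without 1 of the arrays other than day 7 replicate 2. Without 1 array the count of higher unfolded protein response genes was 3 at the lowest and that of lower ones 1.

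The largest single differences included genes outside the lists. Smoc2, a secreted calcium-binding matrix protein, read 4.81, 5.45, 4.83 and 4.96 in cultures, against -5.30 and -6.78 in glomeruli, with a log2 difference of 11.05 (SE 0.45, adjusted p = 8.6e-05) to which 1 glomerular array contributed a reading at background. Ltbp2, a protein of elastic microfibrils, was 363-fold higher, and Inhba, the activin A subunit, 137-fold, at 2.37, 2.40, 2.18 and 2.05 in cultures against -4.32 and -5.37 in glomeruli. Igfbp2, which binds insulin-like growth factors, was 120-fold higher. The neural adhesion molecule Nrcam, the glutamate transporter Slc1a6 and the acid-sensing channel Asic3 were not well above background in glomeruli and were at least 319-fold, 553-fold and 133-fold higher. Of the falls, Myom2, a protein of the muscle M-band, read -3.71, -2.50, -4.42 and -3.48 in cultures, against 7.22 and 7.36 in glomeruli (log2 difference -10.82, SE 0.43). The kallikrein genes Klk1b5 and Klk1b26 were at least 1303-fold and 701-fold lower, and they belong to a family of near-identical copies that one probe may not separate.

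No gene was called between day 7 and day 4 mock cultures. In the same fit 0 genes (0%) passed the threshold by limma, with 755 genes at an unadjusted p under 0.05. With the spread of all 12 arrays 5 genes passed, 4 higher on day 7 and 1 lower. Each day set against the control glomeruli alone gave similar counts, 7512 genes for day 4 and 7740 for day 7, and these comparisons share the same 2 glomerular arrays. Leading genes had close values on both days: the log2 difference of Smoc2 was 11.17 on day 4 and 10.93 on day 7, and that of Acta2 6.17 and 6.14. Both days lie on slides of their own, so that day and slide cannot be told apart either.

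The 6 tamoxifen arrays gave a second set of cultures and glomeruli that shares no sample with the first, though it shares the slides. In tamoxifen cultures against tamoxifen glomeruli 9914 genes (67%) passed, 6184 (41.8%) higher and 3730 (25.2%) lower. Both comparisons called 7549 genes, which is 88.6% of the calls of the untreated comparison and 76.1% of those of the tamoxifen comparison, and 7530 of them had the same direction. Of all 8524 genes called in the untreated comparison, 8362 (98.1%) had the same direction in tamoxifen samples. Acta2 differed by 5.43 in tamoxifen samples and by 6.16 in untreated samples, Cdkn1c by -7.93 and -8.14, and Umod by -12.33 and -12.24. The targeted genes did not follow this. In tamoxifen samples Foxc1 differed by -5.74 and Foxc2 by -6.26, against 0.70 and -0.67 in untreated samples. A test of the difference between the 2 differences over all 12 arrays, chosen after the data were seen, called 161 genes (1.09%), Foxc2 among them but not Foxc1 (adjusted p = 0.17), 68 (0.46%) with the higher value and 93 (0.629%) with the lower value in tamoxifen samples. For the globin gene Hba-a2 the differences were -5.60 in tamoxifen and -9.75 in untreated samples, and the test did not call it (adjusted p = 0.11).

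**Figure D5:**
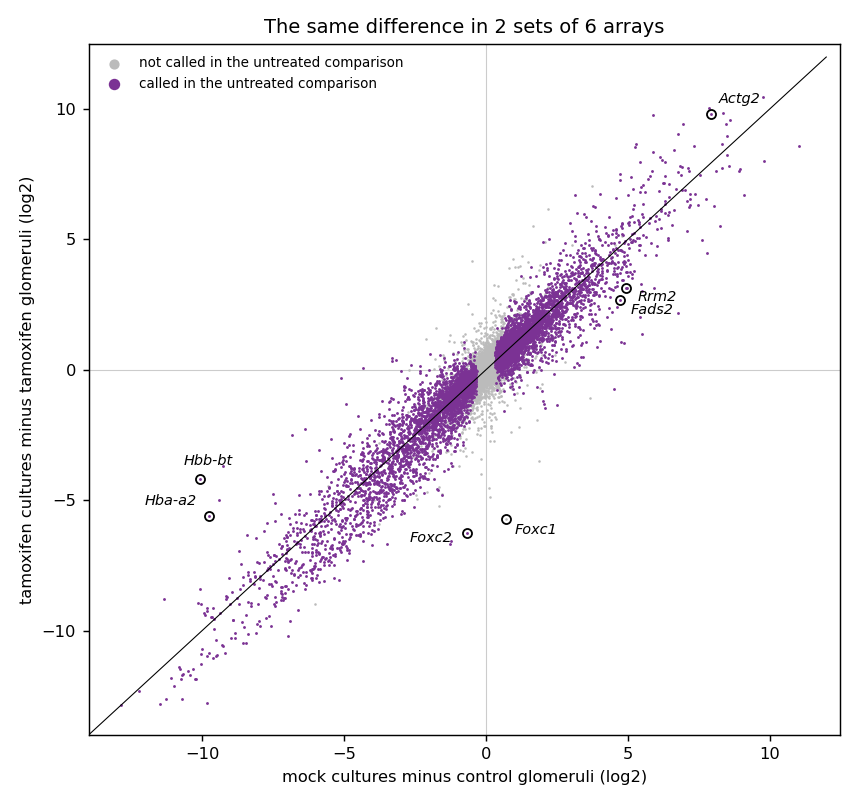
Log2 difference between tamoxifen cultures and tamoxifen glomeruli (vertical) against that between mock cultures and control glomeruli (horizontal), 1 point a gene, purple where called in the untreated comparison, with the line of equal differences. Points follow the line (8362 of 8524 called genes have the same sign), while Foxc1 and Foxc2 lie near -6 on the vertical axis.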

How the data were processed

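RNA of 12 samples was hybridised to 1 Agilent one-colour 4x44K array each. In the deposited scanner files each spot has a linear intensity. They come from Agilent Feature Extraction, version 11.5.1.1 per the file headers. The value table that the authors deposited is in log2 units. No source states its scale, and against the scanner files each column matched the log2 processed signal less a constant that puts the 75th percentile at 0. Genes were not centred (column medians -4.14 to -3.82), and single-sample values carry no direction. No array column lacked a sample (0).

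Control spots stayed out. Outlier spots (83 to 132 on these 6 arrays) were left out of scanner-based alternatives. Of 39429 probes, 26581 had 1 symbol, 0 several and 12848 none, by RefSeq accession without version through a table of GRCm38.p6 (28115 probes had such an accession). The filter kept 25465 probes, those well above background on 2 or more of the 6 arrays, and a gene with several probes (3872 genes) was read by the brightest. Of 2178 called genes with several probes, 302 had a probe pointing the other way. Among listed genes these were Agrn, Cdk1, Hk1, Lats2, Pard3 and Synpo.

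The 3 group means were fitted with limma 3.58.1 in R 4.3.3 (lmFit, eBayes; 3 residual and 2.03 prior degrees of freedom), with Benjamini-Hochberg adjustment over all genes. SE is limma's. A call is an adjusted p under 0.05. Dim sides gave bounds. The tamoxifen arrays were fitted alone. The fit was tested on simulated data. Precision is limited by how few arrays there are.

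The members, the 31 lists and the rule for named genes were chosen with earlier results of these data known. The rule took the 12 largest rises and falls, 6 each way by bound, up to 3 called members each way per list, Foxc1 and Foxc2. Some genes that met it are not reported here, though counts and medians include them. Alternatives were the value source, normexp (offset 50), median and quantile scaling, dim-probe filters, probe averaging, eBayes options, replicate and slide blocks, all 12 arrays, each day alone and each array left out.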

Additional observations from a re-analysis of the deposited data

Results flagged for a closer look

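For 4 genes named here the difference between cultures and glomeruli itself differed between tamoxifen and untreated samples, by limma's test of the difference between the differences over all 12 arrays, which was chosen after the data were seen. The value given is the tamoxifen difference minus the untreated difference on the log2 scale. Foxc2, a gene targeted by the Cre, differed by -5.60 (adjusted p = 0.024). Fads2, a fatty acid desaturase, differed by -2.04 (adjusted p = 0.028), and by -0.64 with normexp (adjusted p = 0.1). Rrm2, of ribonucleotide reductase, differed by -1.82 (adjusted p = 0.039). Actg2, a smooth muscle actin, differed by 1.87 (adjusted p = 0.038). The test called 161 of 14795 genes and 2526 had an unadjusted p under 0.05. Each of the 4 calls was lost without some of the arrays, among them either day 4 mock culture for all 4 genes (adjusted p = 0.054 to 0.093).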

How the results depend on the processing

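Counts of called genes stayed within 1.5 times the reported ones in every alternative run except those given here. With normexp and quantile normalization 397 genes were at least 4-fold higher and 744 at least 4-fold lower in mock cultures, and with probes well above background on all 6 arrays 577 and 689. Between day 7 and day 4, all 12 arrays in the fit gave 5 genes, 4 higher and 1 lower, and leaving out each array gave 0 to 1 gene, 0 to 1 of them higher. The count of called genes between mock cultures and control glomeruli was 6593 to 7458 without 1 array, and 10871 with the slide as a random block (estimated correlation -0.54), which the 3 slides barely support. Median centring gave 6112 higher and 2775 lower genes. The labels' numbers share no stated culture, day or mouse, and replicate differences correlated at 0.58 between the days but at 0.06 and 0.09 between each day and glomeruli. The fit with the replicate number as a replicate block called 8739 genes, 5109 higher and 3630 lower, 0 between the days and 9794 in tamoxifen samples. Of 264 named genes, 262 kept their direction and side of the threshold with that block. Direction turned for Col4a4 with quantile normalization (-0.12), on day 7 alone (-0.13) and without control replicate 1 (-0.16), for Lmx1b (0.045) and Synpo (0.83) with probes averaged per gene and for Atp6v1g3 on day 4 alone (-0.042). Without 1 array Col4a4 ran from -0.16 to 0.25 and Pdgfrb from -0.26 (without control replicate 2) to 0.68. Where a value changed here, the cause was not tested unless the setting tests fewer genes or samples. Sizes of genes near background are bounded at most: 734 genes were not well above background in any culture and 614 in neither glomerular array.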

Other observations

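Some tubule and juxtaglomerular genes stayed measurable in mock cultures. Lrp2 (megalin), the endocytic receptor of proximal tubule, read -1.80, -1.75, -1.92 and -2.31 in cultures, against 2.00 and 1.98 in glomeruli, and was 15.3-fold lower, where most of its list was at background. Aqp2, the water channel of the collecting duct, was 4.34-fold lower with all 4 cultures well above background. Ren1, renin, was 4.45-fold lower, at -2.76, -3.55, -2.18 and -3.48 in cultures against -0.31 and -1.37 in glomeruli, with its call lost without control replicate 1 (adjusted p = 0.11).

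Several secreted and adhesive genes of the matrix and cytokine lists showed close values across the 4 cultures. Thbs1, a matricellular protein, read 4.83, 4.57, 4.47 and 4.39 in cultures, against -0.52 and 0.33 in glomeruli (25.3-fold higher). N-cadherin (Cdh2) was 13.0-fold higher, tenascin C (Tnc) 19.8-fold and Tgfb2 5.89-fold. Ereg, a ligand of the epidermal growth factor receptor, was at least 13.9-fold higher and Il6 at least 5.33-fold higher, neither being well above background in glomeruli. These genes were chosen after their values were seen.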
